A study of Mus musculus with 6 samples.

Results

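These 364 chromatin sites of mouse bone marrow-derived macrophages (BMDMs) were more accessible with IL-4 and less accessible when IL-4 was combined with latrunculin A (LatA) or with MCSF. The assay was ATAC-seq: a transposase inserts sequencing adapters into DNA that is not wrapped up, so reads pile up where chromatin is open. The sites were chosen from the signal itself. On chromosomes 1 to 19, a site had to have a mean signal of at least 1.3 over the 6 libraries and had to pass 4 ratios, each taken after 0.1 was added to every value. The signal with IL-4 had to be at least 1.5-fold above Untreated, and that with DMSO + IL-4 at least 1.5-fold above DMSO. The signal with LatA + IL-4 had to be at least 1.5-fold below its solvent control, DMSO + IL-4, and the signal with MCSF + IL-4 at least 1.5-fold below IL-4. The signal is the number of reads in a site expressed as CPM and scaled between libraries. Of 578591 sites in all, 122938 passed the minimum mean and were compared, and 364 of these (0.296%) met the rule.

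The macrophages came from wild-type mice (C57BL/6 by the strain label, C57BL/6J by the growth protocol) and were grown from bone marrow in medium conditioned by L929 cells, which itself contains MCSF, so every group, Untreated included, was made in its presence. The 6 groups had 1 library each. Untreated cells received nothing further, and IL-4 cells received IL-4 at 20 ng/ml for 24 hours. DMSO cells received the solvent of LatA, and DMSO + IL-4 cells received the solvent and IL-4. LatA + IL-4 cells received LatA at 1 µM with IL-4, and MCSF + IL-4 cells received MCSF at 100 ng/ml with IL-4. There was no library of LatA or MCSF without IL-4 among those used here. With 1 library per group there is no replicate error, and no test was made of ratios that chose the sites. Every ratio therefore compares a pair of libraries, and the 95% intervals beside ratios of single sites cover counting error only. Because reads carry no molecular identifiers, these intervals treat reads as independent, which duplicated or repeatedly aligned reads are not. In a bulk library, fewer cells of one kind and less open DNA per cell cannot be told apart, and whether the libraries hold cells other than macrophages was not analysed here.

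IL-4 signals through its receptor to the transcription factor STAT6, which enters the nucleus and switches on genes of alternative (tissue-repair) macrophage activation. Actin filaments give a cell its shape and its response to the stiffness around it, and LatA blocks their growth by binding actin monomers. MCSF, also called CSF1, is the ligand of the receptor Csf1r, supports macrophage survival, and remodels the cytoskeleton. The study used LatA and MCSF as a pair of unlike ways to disturb the cytoskeleton, and the comparison addressed whether IL-4-driven chromatin opening depends on its state.

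One pair of these sites lies at a gene the study follows. Its own view of the mm9 genome places the first site of the pair, on chromosome 16, at the promoter of Retnla, which encodes the secreted protein RELMα (also called FIZZ1), a marker of alternative activation. This placement could not be checked against an mm9 annotation here, and the name Retnla promoter site rests on it. Both sites were singled out here after their values were seen, and the second is also among the 10 sites whose smallest ratio was largest. The RefSeq promoter of Retnla is shown because STAT6 and C/EBP factors are known to act on it. The sequence is from GRCm38.p6, on the + strand, 250 bases up to the start of the gene. The files use mm9, so how many of these bases fall inside the site is not given. Capitals mark 2 motif matches, first the STAT6 letters (TTC and GAA with 4 bases between) and then the C/EBP letters (TTGC, any 2 bases, AA, or the reverse complement), both searched on either strand.
Retnla promoter: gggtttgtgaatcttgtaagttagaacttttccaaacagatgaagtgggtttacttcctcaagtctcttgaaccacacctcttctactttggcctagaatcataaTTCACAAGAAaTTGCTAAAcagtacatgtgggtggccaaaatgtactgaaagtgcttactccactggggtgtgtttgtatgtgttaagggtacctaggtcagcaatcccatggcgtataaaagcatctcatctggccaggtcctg
The STAT6 match begins 145 bases before the gene start and the C/EBP match 134 bases before it, and they do not overlap. Of 32851 RefSeq promoters cut to the same length, 5.85% held the STAT6 letters and 9.56% the C/EBP letters. The letters of PU.1, the factor that keeps macrophage enhancers open, occur once, as ACTTCCTC beginning 198 bases before the start, and 2.44% of promoters held them. No match was found for the STAT letters with 3 bases between (7.02% of promoters), for AP-1 (TGANTCA, 6.75%), for the CArG box of SRF (1.47%) or for the CACGTG or GACGTG letters of MITF and TFE factors (10.9%). A match of letters is a description and not a bound site.

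At the first site of the pair (chromosome 16, 48842417 to 48842906), almost all reads came from libraries that received IL-4, the treated libraries included. It held 3 reads in Untreated and 3 in DMSO, 97 in IL-4 and 80 in DMSO + IL-4, and 56 with LatA and 19 with MCSF. The signals, in the same order, were 0.144, 0.175, 6.17, 6.41, 3.83 and 1.44. The site was near closed in both libraries without IL-4 and stood highest in both IL-4 controls, with LatA + IL-4 closer to its control than MCSF + IL-4 was. The ratio was 42.9 for IL-4 against Untreated (95% interval 14.2 to 211.6) and 36.7 in the pair with solvent (12.1 to 181.5). With LatA the signal was 1.68-fold lower (1.18 to 2.40), and it was 4.28-fold lower with MCSF (2.60 to 7.41). LatA + IL-4 was 2.65 times as high as MCSF + IL-4 (1.55 to 4.73), a description of these 2 libraries at a site chosen on their values. LatA removed 41.5% of the gain that IL-4 gave over the matching control, and MCSF removed 78.5%. A peak was called here in both IL-4 controls and in both treated libraries, and in neither library without IL-4.

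The second site lies 1966 bp further along (48844873 to 48845783) and is wider, at 911 bp. It held 26 reads in Untreated and 17 in DMSO, 150 in IL-4 and 129 in DMSO + IL-4, and 36 with LatA and 29 with MCSF. The signals were 1.25, 0.992, 9.54, 10.3, 2.46 and 2.20. Here both treated libraries sat well below both IL-4 controls and above both libraries without IL-4. The signal was 4.21-fold lower with LatA (2.89 to 6.27) and 4.33-fold lower with MCSF (2.90 to 6.69), which removed 84.3% and 88.5% of the gain. LatA + IL-4 and MCSF + IL-4 differed by a ratio of 1.12 (0.666 to 1.89), within counting error. In these libraries the neighbouring sites lost unlike shares of the gain with LatA (41.5% and 84.3%). This describes sites singled out on their values, and the difference between them was not tested.

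Over all 364 sites, the libraries fell into 2 levels. The median signal was 1.20 in Untreated and 1.17 in DMSO, 1.02 with LatA and 1.14 with MCSF. It was 2.80 in IL-4 and 2.89 in DMSO + IL-4. In reads, these medians were 25, 20, 15 and 15 in the 4 low libraries and 44 and 36 in the IL-4 controls. Both IL-4 controls stood above all 4 other libraries at 325 of the 364 sites (89.3%), against 5.13% of compared sites, a pattern that the rule largely sets. At 0 reads were 6 sites in Untreated, 8 in DMSO, 13 with LatA and 19 with MCSF, while no site was at 0 in either IL-4 control. For a site at 0, the count allows up to 3 reads, a signal of 0.144 in Untreated and 0.228 in MCSF + IL-4.

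**Figure D1:**
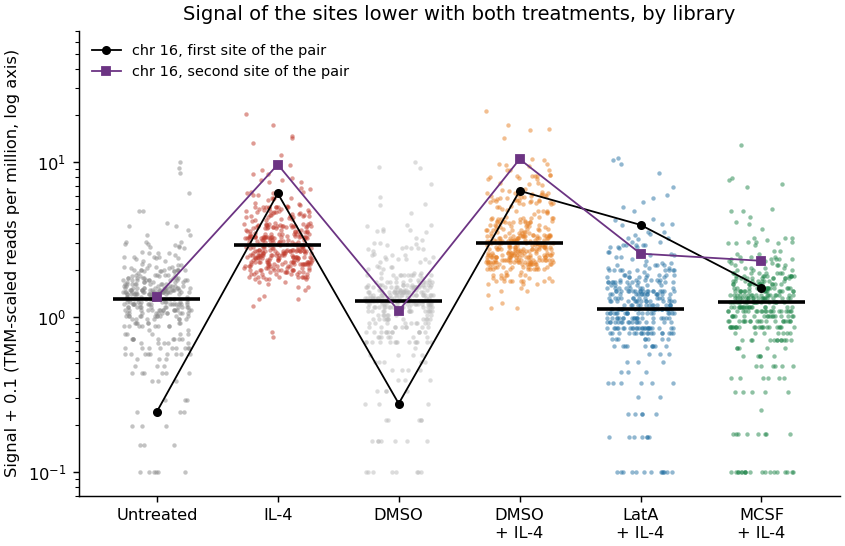
Signal (scaled CPM with 0.1 added; log axis) of the 364 sites in each of the 6 libraries, 1 point per site, with a bar at the median and lines joining the values of the chromosome 16 pair. The medians of IL-4 and DMSO + IL-4 (2.80 and 2.89 before the addition) stand above the other 4, which lie between 1.02 and 1.20.

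The rule fixes the direction of the following ratios and puts the same 1.5-fold limit on each, so their sizes are a description of the sites chosen. With IL-4 alone the median log2 ratio was 1.02 (0.94 to 1.12), and with IL-4 in solvent it was 1.11 (1.02 to 1.21), each against the library without IL-4. For LatA the median was -1.16 (-1.26 to -1.10), and for MCSF it was -1.15 (-1.20 to -1.07), each against its IL-4 control. The intervals of these medians reflect the spread between the 364 chosen sites, which are not replicates, and do not measure counting or replicate error. With sites at 0 set to the limit of 3 reads and nothing added, the medians were 1.07, 1.15, -1.23 and -1.22. Over all compared sites the 4 medians were 0.11, 0.01, 0.23 and 0.19. The treatment medians of all sites depend on the scale, since total reads outside the largest sites gave 0.04 for LatA and -0.01 for MCSF. All 364 sites were called in each of the 4 comparisons by construction. Of all compared sites, 20.8% were called higher with IL-4, 16.6% higher with DMSO + IL-4 against DMSO, 14.8% lower with LatA and 13.9% lower with MCSF.

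The sites were a small part of the IL-4 response. Both IL-4 comparisons called 10882 sites higher (8.85% of compared sites), and the 364 are 3.34% of them. Both treatments lowered 3.99% of compared sites. Of the 10882 induced sites, 759 (6.97%) were lower with LatA only, 663 (6.09%) with MCSF only, and 9096 (83.6%) with neither. Over all compared sites 14.8% were lower with LatA and 13.9% with MCSF, sites lower with both included. Shares lower with a single treatment were not counted there. The 10518 induced sites outside the set had a median log2 ratio of 0.33 with LatA and 0.58 with MCSF. On this scale the median of the other induced sites therefore lay above the IL-4 control with either treatment.

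The 10 sites whose smallest ratio was largest are given next. The site on chromosome 4 (134142676 to 134143398) led, with 6 reads in Untreated and 10 in DMSO, 55 in IL-4 and 53 in DMSO + IL-4, and 8 with LatA and 7 with MCSF. Its signal was 7.78-fold lower with LatA (3.67 to 18.9) and 6.58-fold lower with MCSF (2.99 to 17.1). Both IL-4 controls lay far above the 4 other libraries, and a peak was called only in those controls. The site on chromosome 1 (10749186 to 10749892) held 4 reads in Untreated, 8 in DMSO, 67 in IL-4 and 38 in DMSO + IL-4, and 0 in both treated libraries. Against the limit of 3 reads, and with the control count taken as it stands, it was at least 14.9-fold lower with LatA and at least 18.7-fold lower with MCSF. With counting error in the control as well, the 95% lower limits were 11.5 and 14.8. This site had more reads without IL-4 than with IL-4 and either treatment.

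Next came 2 sites on chromosome 13. The first (22709642 to 22710131) held 13 reads in Untreated, 4 in DMSO, 53 in IL-4, 100 in DMSO + IL-4, 4 with LatA and 3 with MCSF, and the sites that follow are given in this order. The IL-4 controls stood apart from all other libraries, but they also differed from each other, 53 reads against 100. The second (20991222 to 20991929) held 23, 7, 90, 28, 4 and 8 reads, and here the order of the IL-4 controls was the opposite. On chromosome 7 (71491284 to 71491688) the counts were 1, 2, 49, 64, 1 and 8. Its ratio of IL-4 to Untreated, 65.0 (11.1 to 2619), was the largest of the 10, and its interval is wide because 1 read stands on the low side.

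The site on chromosome 9 (73415586 to 73416309) held 14, 20, 79, 70, 1 and 5 reads. Its 1 read with LatA compares with 70 in the IL-4 control and 20 in DMSO. The site on chromosome 14 (104710475 to 104711002) held 13, 2, 49, 41, 6 and 4 reads. The second site of the Retnla pair came next. On chromosome 16, far from that pair, the site at 93389119 to 93390103 held 11, 10, 36, 56, 10 and 0 reads, which makes it at least 10.1-fold lower with MCSF (95% lower limit 7.77) and 6.57-fold lower with LatA (3.32 to 14.5). The site on chromosome 10 (110298656 to 110299069) held 11, 10, 34, 67, 0 and 0 reads, at least 26.2-fold lower with LatA (95% lower limit 20.7) and at least 9.50-fold lower with MCSF (95% lower limit 7.31). In all 10 sites both IL-4 controls lay above the other 4 libraries.

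**Figure D2:**
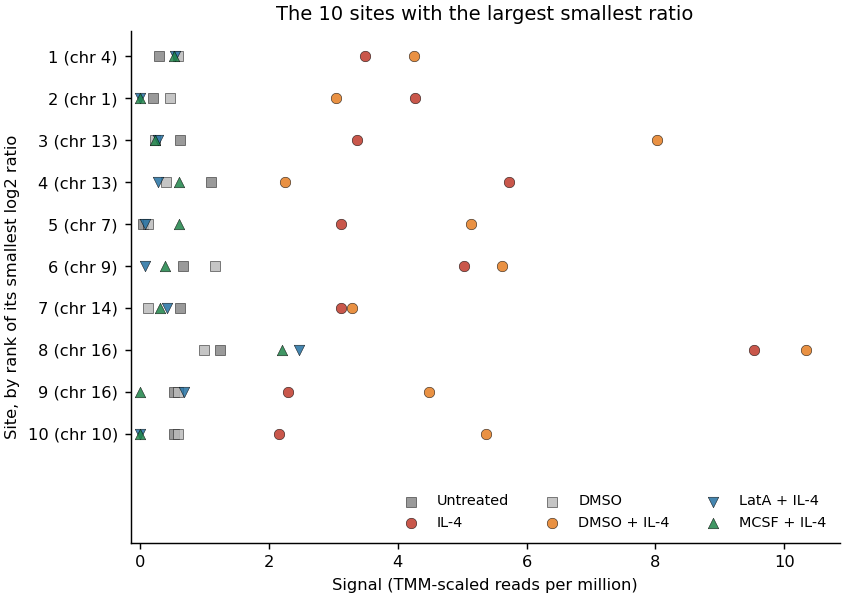
Signal (scaled CPM, linear axis) at the 10 sites with the largest smallest ratio, 1 row per site by rank, with squares for the libraries without IL-4, circles for the IL-4 controls and triangles for the treated libraries. At every site the IL-4 and DMSO + IL-4 points lie above the points of the other 4 libraries.

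The 5 sites of highest mean signal are given next. The highest mean signal, 13.9, was on chromosome 5 (25322262 to 25324429), with signals of 9.97, 9.22, 20.5, 21.2, 9.56 and 12.8 in Untreated, DMSO, IL-4, DMSO + IL-4 and the libraries with LatA and MCSF. The ratio of IL-4 to Untreated was 2.05 (1.72 to 2.46), and the signal was 2.21-fold lower with LatA (1.80 to 2.74) and, for MCSF, 1.60-fold lower (1.32 to 1.93). A peak was called in all 6 libraries, so this site was open throughout and differed in degree. The site on chromosome 5 at 33070644 to 33070944 had signals of 8.39, 9.10, 17.4, 17.3, 10.2 and 7.81. There LatA + IL-4 stayed above both libraries without IL-4, while MCSF + IL-4 lay below both. On chromosome 17 (64588567 to 64590473) the signals were 2.83, 5.19, 13.2, 16.4, 6.76 and 7.51. There both treated libraries stayed above both libraries without IL-4. No counting interval is given for these orders of treated libraries and libraries without IL-4. Small differences, such as 10.2 against 9.10, may lie within counting error.

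The other 2 of the 5 highest lie on chromosome 11 and together span 7.88 kb. The site at 3037824 to 3038090 had signals of 6.18, 7.12, 14.1, 14.1, 8.40 and 7.13, and that at 3045212 to 3045705 had 9.06, 9.97, 14.6, 15.955, 10.6 and 6.83. The latter was the site nearest to the LatA limit, 1.51-fold lower (1.22 to 1.87), and was 2.14-fold lower with MCSF (1.67 to 2.76). At both, LatA + IL-4 was above MCSF + IL-4 in these libraries. No counting interval is given for this order, and 8.40 against 7.13 is a small difference.

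How far each treatment undid the IL-4 rise was taken as the fall in signal divided by the rise over the matching control. With LatA the median was 103.5% of the rise (quartiles 80.7% to 128.3%, range 39.0% to 272.5%). With MCSF it was also 103.5% (82.8% to 137.7%, range 36.6% to 269.7%). Signal with LatA was at or below the DMSO control at 196 sites (53.8%), and signal with MCSF was at or below Untreated at 201 sites (55.2%). Both held at 119 sites, LatA alone at 77, MCSF alone at 82, and neither at 86. These values come from the signals that chose the sites, with equal fold limits on rise and fall, and a median near the full rise is largely set by that choice. At 13 sites LatA removed under 50% of the rise, the Retnla promoter site among them, and at 11 sites MCSF did.

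Ratios of the treated libraries to the libraries without IL-4 were not part of the rule, although the libraries were. LatA + IL-4 was at least 1.5-fold below DMSO at 93 of the 364 sites (25.5%) and above it at 72, against 15% and 31.5% of compared sites. MCSF + IL-4 was at least 1.5-fold below Untreated at 93 sites and above it at 71, against 14.3% and 36.6%. For both treatments, lower calls were more frequent and higher calls less frequent than over all compared sites. The rule itself asks for low treated libraries, so nothing more is read from these shares.

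The solvent and the choice of control were examined in the same way. DMSO was at least 1.5-fold above Untreated at 73 sites (20.1%) and below it at 81 (22.3%), against 16.6% and 6.89% of compared sites. DMSO + IL-4 was above IL-4 at 65 sites (17.9%) and below it at 45 (12.4%), against 11% and 9.29%. When each treated library was set against the IL-4 control that the rule had not given it, LatA + IL-4 was at least 1.5-fold lower than IL-4 at 303 sites (83.2%, against 15% of compared sites). MCSF + IL-4 was lower than DMSO + IL-4 at 313 sites (86.0%, against 14.2%). Both held at 252 sites (69.2%). In the rule the IL-4 library enters the IL-4 ratio and the MCSF ratio, and the DMSO + IL-4 library enters the other 2, so a high count in either control moves a pair of ratios the way the rule asks. The crossed ratios reuse libraries chosen as high or low, which largely fixes their counts, and nothing is read from the difference to the background.

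LatA and MCSF were compared directly, at their single doses and with 24 hours of IL-4, a comparison that differs also in solvent. LatA + IL-4 was at least 1.5-fold above MCSF + IL-4 at 92 sites (25.3%) and below it at 90 (24.7%), against 16.4% and 13.7% of compared sites, and 182 sites (50%) lay within 1.5-fold. The treated libraries thus differed past 1.5-fold at as many sites as they did not, with the sign split evenly. Across the 364 sites the log2 ratios of LatA and MCSF had a Pearson correlation of 0.32, a description over sites that the rule cut off at both axes and with low counts on either side. The Retnla promoter site is 1 of the 92.

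**Figure D3:**
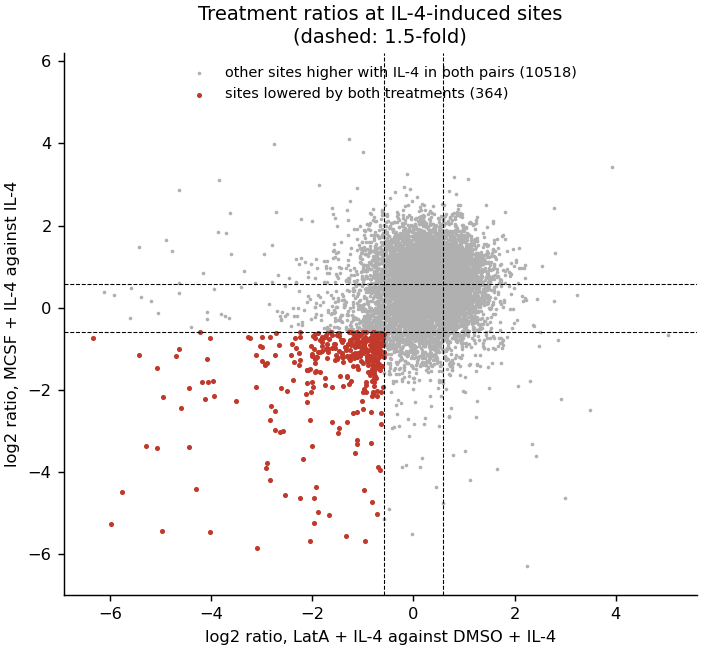
Log2 ratio of MCSF + IL-4 to IL-4 against the log2 ratio of LatA + IL-4 to DMSO + IL-4, 1 point per IL-4-induced site, with the 364 sites lower with both treatments set apart in colour and lines at 1.5-fold. The set fills the lower left corner, and most of the other 10518 induced sites lie at or above 0 on both axes.

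Counting intervals were taken on the ratios that chose the sites, so an interval clear of 1 describes the depth behind a ratio and is no test of it. Intervals of all 4 ratios were clear of 1 at 195 of the 364 sites (53.6%). Both IL-4 intervals were clear at 252 sites and both treatment intervals at 244. Among the 30 sites with a mean signal of at least 3.3, all 4 intervals were clear at 30. All 4 ratios passed 2-fold at 52 sites.

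Values just inside and outside each limit of the rule were close. The lowest mean signal inside was 1.301 at chromosome 4, 52352335, and the highest outside was 1.297 at chromosome 5, 59676494. For IL-4 against Untreated, a site on chromosome 16 at 41860683 was inside at a log2 ratio of 0.586 and one on chromosome 11 at 18134088 outside at 0.582. For DMSO + IL-4 against DMSO, the values were 0.585 at chromosome 4, 60986557, and 0.581 at chromosome 6, 104136349. For LatA, they were -0.587 at chromosome 11, 3045212, and -0.584 at chromosome 6, 137072870. For MCSF, they were -0.593 at chromosome 14, 101147813, and -0.580 at chromosome 5, 90092128.

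Peak calls, made by the authors in each library on its own, gave a second view from the same reads. A peak overlapped 98.1% of the sites in IL-4 and 96.2% in DMSO + IL-4. The share was 47.3% in Untreated and 42.6% in DMSO, and 40.7% with LatA and 45.3% with MCSF. Over all compared sites the shares lay between 79.7% and 85.1% in every library. At the other induced sites the shares were 51.9% in Untreated and 55.5% in DMSO. Those with LatA and MCSF were 95.6% and 96.0%, in a set from which sites lowered by both had been removed. Where a peak was called, its median fold enrichment over the local background was 6.41 in IL-4 and 6.76 in DMSO + IL-4, and between 4.04 and 4.56 in the other 4 libraries. At 242 sites (66.5%) a peak was present in Untreated or DMSO, against 93.1% of compared sites and 63.3% of the other induced sites. A peak in both IL-4 controls and no other library was found at 52 sites (14.3%, against 0.218% of compared sites). At 122 sites (33.5%) both IL-4 controls had a peak and neither treated library did, against 3.75% of compared sites and 0.314% of the other induced sites. The rule, which asks for low signal in the treated libraries, largely sets these patterns.

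**Figure D4:**
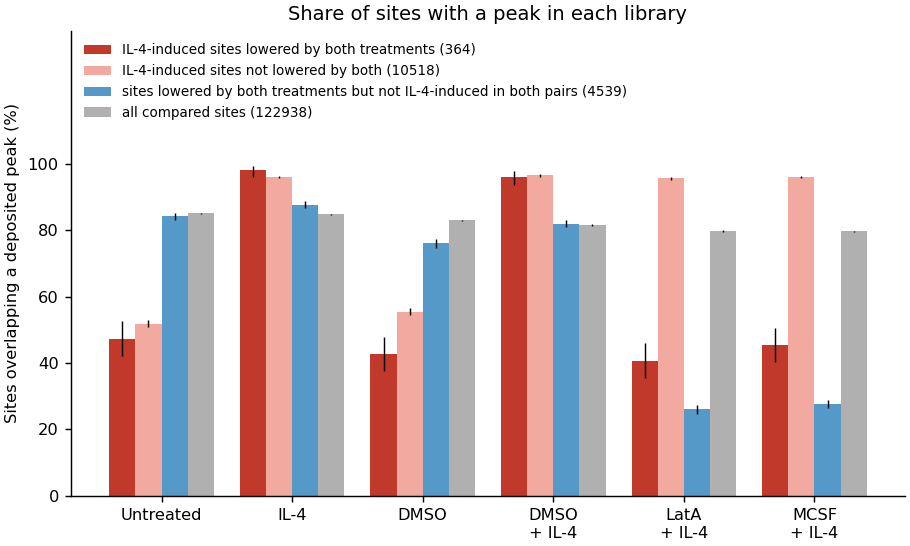
Share of sites (percent) that overlap a peak in each of the 6 libraries, for the 364 sites and for comparison sets, with 95% exact binomial intervals for counting error. The 364 sites have high shares only in IL-4 (98.1%) and DMSO + IL-4 (96.2%), whereas the other induced sites are at 95.6% and 96.0% with LatA and MCSF.

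The sites had low signal. Their median mean signal was 1.65, and 91.8% lay under 3.3. Over all compared sites the median was 2.11 and 73.9% lay under 3.3. Sites lowered by both treatments but not induced in both IL-4 comparisons had a median of 1.72 and 90.5% under 3.3. Of the induced sites with a mean signal from 1.3 to 2, 257 of 4250 (6.05%, 95% interval 5.35% to 6.81%) belonged to the set. From 2 to 3.3 it was 77 of 3263 (2.36%), from 3.3 to 6.6 it was 25 of 2412, and above 6.6 it was 5 of 957 (0.522%). The share of all compared sites that were lower with both treatments went the same way over these steps, at 5.72%, 3.51%, 1.67% and 1.05%, so the trend is not particular to the induced sites. The part of counting error in it was not tested.

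Their shape differed from that of other induced sites in measures the rule did not use. Median width was 627 bp against 475 bp at the other induced sites and 589 bp over all compared sites. The summit of a peak, its highest point, was 92 bp apart between IL-4 and DMSO + IL-4 at the median (343 sites with a peak in both), against 18 bp at the other induced sites and 33 bp at all compared sites. At a mean signal under 2 the gap was 88 bp against 22 bp, and at 3.3 or more, where the set has 30 sites, it was 134 bp against 15 bp. Widths differed in the same groups, 575 bp against 386 bp and 1039 bp against 620 bp, and a wider site allows a larger gap. The part of width in the gap was not tested. Sites lowered by both treatments without being induced by IL-4 in both comparisons had a gap of 127 bp and a width of 649 bp. In these measures the 364 sites lay nearer to other lowered sites than to other induced sites. At the Retnla pair the gaps were 2 bp and 9 bp.

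Read counts that are multiples of 10 were more frequent at these sites. The authors let the aligner report up to 10 alignments per read. A non-zero multiple of 10 reads was found at 11.8% to 17.6% of the sites, depending on the library, and at 10.2% to 10.3% of all compared sites. The 95% intervals of Untreated (8.92% to 15.9%), LatA + IL-4 (9.89% to 17.1%) and MCSF + IL-4 (8.68% to 15.6%) include that background. Those of IL-4 (12.3% to 20.1%), DMSO (13.8% to 21.9%) and DMSO + IL-4 (12.1% to 19.8%) lie above it. In 3 or more libraries at once it was found at 27 sites (7.42%, 95% interval 4.94% to 10.6%), against 1.99% of all compared sites and 1.95% of the other induced sites. Without such sites the rule gave 337. The part of repeated alignment in the result was not tested.

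The sites were scattered over the genome. Each of the 19 chromosomes held from 6 sites (chromosome 19) to 36 (chromosome 1), from 2.09% of induced sites on chromosome 11 to 4.43% on chromosome 4. The median distance to the nearest other site of the set was 2010 kb. Only 24 of the 364 had another within 100 kb, as 12 pairs, and there was no group of 3. The Retnla pair was 1 of the 12, and the chromosome 11 sites above were another.

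Calls at compared sites close to the set were counted next. Within 5 kb lay 243 such sites, of which 19.8% were called higher with IL-4, 15.2% higher with DMSO + IL-4, 22.2% lower with LatA and 16.5% lower with MCSF. The corresponding shares over all 122574 compared sites outside the set were 20.6%, 16.4%, 14.5% and 13.7%. Among 8944 sites within 5 kb of another induced site, 38.4% and 28.2% were higher in the IL-4 comparisons and 5.48% and 5.25% lower with LatA and MCSF. Within 1 kb the 67 neighbours were called at 13.4%, 10.4%, 25.4% and 16.4%, below the shares outside the set for IL-4 and above them for the treatments. These differences were not tested.

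**Figure D5:**
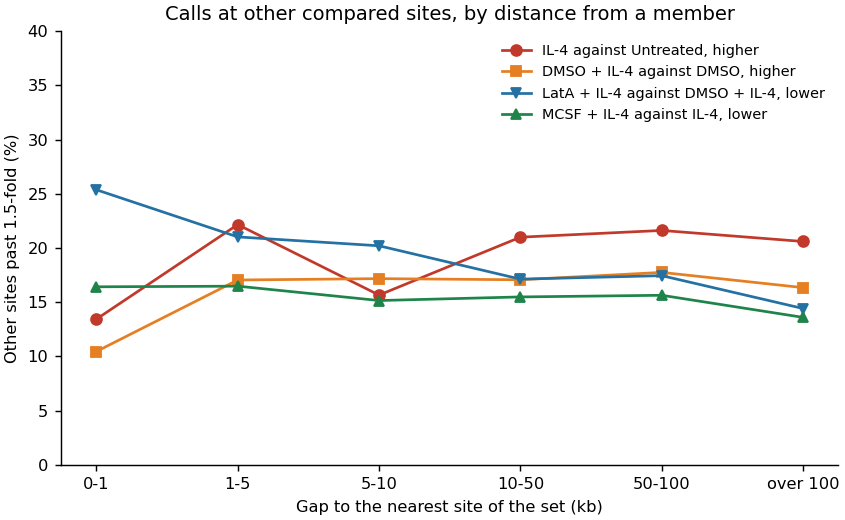
Share of neighbouring compared sites (percent) called at least 1.5-fold higher with IL-4 or lower with a treatment, by distance (kb) from the nearest of the 364 sites, with 1 line per comparison. Within 1 kb, 13.4% of the 67 neighbours were higher with IL-4 and 25.4% were lower with LatA.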

How the data were processed

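Per the study's methods, reads were trimmed with Cutadapt, aligned to mm9 with Bowtie2 reporting up to 10 alignments per read, cleared of duplicates with Picard, and counted per site with featureCounts; tool versions are not given in the sources used here. In the deposited site table, the authors give a signal per site and library, which is CPM scaled with TMM factors in edgeR. Whole reads were recovered for 100% of values (tolerance 1e-06). Depth was 12387332 to 19889902 reads in sites, so 1 read was worth a signal of 0.0479 to 0.0802. Peaks were called by the authors with macs2 at q 0.05, with 1 deposited list per library. Those deposited lists hold a fold enrichment of each peak over local background, a score that restates the q-value (not used), and −log10 p (not used) and −log10 q values.

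Ratios were taken on signal with 0.1 added, with Python 3.11.15, numpy 2.4.6, pandas 2.3.3 and SciPy 1.17.1, and the code was tested on simulated data. Ratio intervals are exact binomial (Clopper-Pearson) on reads, without the addition, and median intervals use order statistics, all at 95%. A peak overlapped a site by at least 1 bp. With 1 library per group no count model was fitted. Sites named in the text are the 10 with the largest smallest ratio, the 5 with the highest mean signal and those nearest each limit. The Retnla promoter site was added after its values were seen. So were the solvent examples on chromosome 9 (89400713) and chromosome 8 (108592663), which were not recomputed under the alternatives. The chromosome 5 and chromosome 6 pairs are named for their span. The members and lists were chosen with earlier results of these data known. Positions are in mm9, counted from 1. The reference at hand is GRCm38, so the sequences, motifs, nearest genes, gene lists and cell type markers of the sites were not analysed here, and no position was converted. Alternatives changed the scaling, the added constant, the fold, the filter, the control, the signal trend, peak support and chromosomes.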

Additional observations from a re-analysis of the deposited data

Results flagged for a closer look

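The solvent went one way without IL-4 and the other way with it at 11 of the 364 sites. At 2 sites (0.549%, against 1.62% of compared sites) DMSO was at least 1.5-fold above Untreated, and DMSO + IL-4 at least 1.5-fold below IL-4. At 9 sites (2.47%, against 1.10%) DMSO was below Untreated and DMSO + IL-4 above IL-4. The rule asks for DMSO + IL-4 above DMSO, a ratio that the pattern of the 9 sites raises and that of the 2 lowers. These shares are therefore largely set by the choice of sites, and nothing is read from their difference to the background. The difference between the 2 effects was not tested, since each group has 1 library. The sites named here were chosen after their values were seen. On chromosome 9 (89400713 to 89401123) there were 12 reads in Untreated and 1 in DMSO, but 33 in IL-4 and 66 in DMSO + IL-4. The chromosome 13 site at 22709642, among the 10 sites whose smallest ratio was largest, is also of this kind. On chromosome 8 (108592663 to 108593362), 1 of the 2 sites of the first kind, the counts were 8 and 33 reads without IL-4 and 74 and 37 with it. At such sites the size of the IL-4 ratio depends on which control pair is read.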

How the results depend on the processing

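The rule gave between 329 and 452 sites under other scalings (DESeq2 size factors, total reads, and total reads outside the largest sites), 0.01 in place of 0.1, crossed controls, a removed trend with signal, required peaks, or X and Y added. Of the 452 sites (total reads outside the largest sites), 307 are among the 364, and of the 416 with total reads, 345 are. Crossed controls gave 335 sites, with 252 shared. The trend-free rule gave 401, with 293 shared. The count was 210 with 0.5 added, 52 at 2-fold, 30 at a mean signal of 3.3 and 8293 with no minimum, so it rests on the added constant, the fold and the filter. With 0.5 added, the median log2 ratios were 0.83 and 0.92 for the IL-4 pairs and -0.95 for LatA and -0.95 for MCSF. Without the trend the IL-4 median was 0.94. With total reads outside the largest sites as the scale, LatA and MCSF gave -1.34 each, while all compared sites shifted by -0.19 and -0.20. With total reads MCSF gave -1.22. At −log10 q of at least 5, peak shares were 34.6% in Untreated, 31.6% in DMSO, 91.5% in IL-4, 89.6% in DMSO + IL-4, 31.3% with LatA and 28.3% with MCSF. Of 100 recomputed values at 20 named sites, 83 stayed past every limit and 17 did not, all 17 at the 5 sites nearest a limit, and none reversed. Leaving out sites with multiples of 10 reads in 3 or more libraries, an alternative chosen after seeing the data, gave 337. No paired analysis was possible because no result here comes from a test: a fit of IL-4 and solvent over 4 libraries would test the ratios that chose the sites. Each group has 1 library, so there is no replicate to omit. The motif window and gene-start alternatives were not run without an mm9 genome. Median counts were 15 reads in both treated libraries.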

Other observations

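Some IL-4-induced sites went opposite ways with the treatments. Of the 10882 sites induced in both pairs, 332 (3.05%) were at least 1.5-fold lower with LatA and higher with MCSF, and 168 (1.54%) were lower with MCSF and higher with LatA. The same shares were not taken over all compared sites, so nothing about induced sites is read from these counts. On chromosomes X and Y, which the rule leaves out, 15 of 8471 compared sites (0.177%) met the same conditions.

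Pairs of nearby sites varied in distance. Of the 12 pairs, the chromosome 5 pair at 25321595 to 25324429 spans 2.83 kb and holds the site of highest mean signal, and the Retnla pair spans 3.37 kb. The widest pair, on chromosome 6 (64822599 to 64919277), spans 96.7 kb.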
